A study of Mus musculus with 8 samples.

Results

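The carboxylesterases of the Ces1, Ces2 and Ces3 gene clusters were followed in mouse liver. Members were the rows of the deposited table whose symbol is Ces1b, Ces1c, Ces1d, Ces1e, Ces1f, Ces1g, Ces2a, Ces2c, Ces2e or Ces3a, which gave 10 of the 24451 genes. RNA of the left liver lobe came from 4 Brap LKO mice and 4 Brap F/F mice. Brap encodes a ubiquitin ligase. All mice were males, were of the C57BL/6 strain by the labels (the floxed line was made on C57BL/6J according to the methods), were 18 wk old, had been fasted for 6 h and carried floxed alleles in which exons 2 and 3 of Brap are flanked by loxP sites (Brap fl/fl). The Brap LKO mice also carried Alb-Cre, a Cre transgene under the albumin promoter, which is active in hepatocytes. The Brap F/F mice, called wildtype in the sample titles, lacked Cre. Which other cells of the liver had lost the gene was not measured, and there was no group with Cre and unfloxed Brap.

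Carboxylesterases are serine hydrolases that hepatocytes hold in the lumen of the endoplasmic reticulum by a retention signal at the carboxyl end. They split esters and amides, and act both on drugs and on lipids. Ces1 enzymes include hydrolases of stored triglyceride that feed the assembly of very low density lipoprotein (VLDL), while Ces2 enzymes prefer esters of a large alcohol with a small acyl group, and some also act on acylglycerols. Several members are known targets of the xenobiotic receptors CAR and PXR, and Ces1g of the bile acid receptor FXR.

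None of the 10 members passed the test between Brap LKO and Brap F/F. By level per exon length the members lay between percentiles 89.4 and 99.6 of the genes tested. In 8 of the 10 the difference was below 0 (52.0% of all genes tested), with a median log2 fold change of -0.20 against -0.01 over all genes tested. Ces1d, the triacylglycerol hydrolase, averaged 15872 ± 5005 normalized counts in Brap LKO and 24348 ± 10232 in Brap F/F (SD, n = 4 each). Ces2c, an acylglycerol and drug hydrolase, had the opposite sign, at 1671 ± 140 against 1229 ± 415 (SD, n = 4 each). The spread among the Brap F/F livers was wide. Brap F/F livers 2 and 3 were the 2 highest of their group for 8 members (28.0% of all genes tested). They were the 2 lowest for Ces2c and Ces3a (27.6% of all genes tested).

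A normalized count is the number of reads on a gene after division by a size factor of the liver. The reads on genes numbered from 26280884 to 33313914 per liver. Brap itself ranged from 3641 to 4203 normalized counts in Brap LKO and from 3994 to 4410 in Brap F/F (difference in log2 -0.07 ± 0.0676 SE, limma adjusted p = 0.631). That count runs over all exons, of which 2 and 3 are the deleted ones, so it does not check the deletion, and the groups are named by their labels. Of the hepatocyte markers, 7 of 8 were tested and none was called, while of the cholangiocyte markers 8 of 8 tested were higher and 2 were called (Cldn4 and Cftr). P-values throughout measure the spread between these livers.

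The members lie on chromosome 8 in mm10 in 2 clusters. The Ces1 cluster runs from 93020214 to 93535830 on the minus strand, spans 516 kb and holds 9 carboxylesterase genes in the annotation, 6 of them members. The second cluster runs from 104734003 to 105150109 on the plus strand, spans 416 kb and holds 11, with the members Ces2a, Ces2c, Ces2e and Ces3a. All 10 members are protein coding, with coding lengths from 1662 bases for Ces1c to 1713 bases for Ces3a. Their neighbours in the clusters are close relatives, and stretches of 50 bases, the read length, recur between genes. Of the 50-base windows of the Ces2c transcript 42.2% also occur in another annotated gene, of which 734 windows are in the pseudogene Ces2d-ps. The share was 30.9% for Ces3a, all of it with its neighbour Ces3b, and 22.2% for Ces2a, mostly with the pseudogene Gm7208. Ces1b and Ces1c shared 190 windows with each other, and shares of 11.6% and 17.0% with any gene. For the other 5 members the share was 1.28% to 3.36%. How reads with several matches were counted is not given in the sources used here, so counts of Ces2c, Ces3a, Ces2a, Ces1c and Ces1b are less certain than those of the rest.

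**Figure D1:**
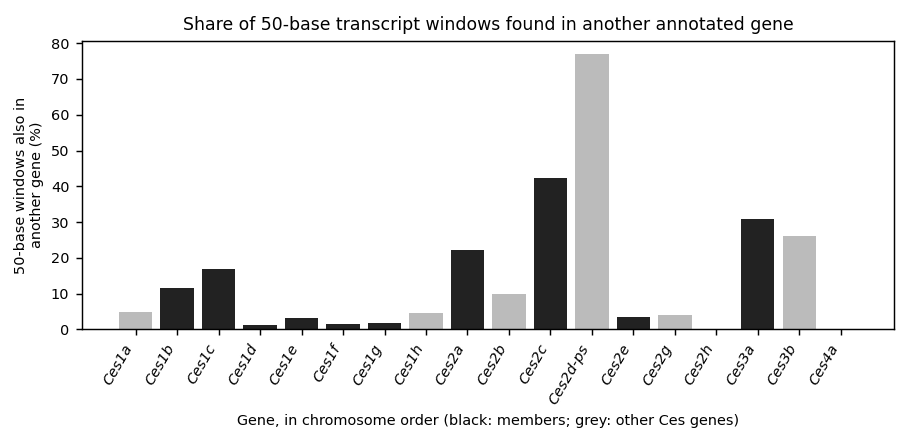
Percent of the 50-base windows of each carboxylesterase transcript that also occur in another annotated gene, with members in black and other Ces genes in grey. Ces2c (42.2%) and Ces3a (30.9%) have the highest shares of the members, and Ces1d (1.28%) the lowest.

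Promoter sequences were also alike between some neighbours. RefSeq promoter windows (GRCm38.p6) matched 7 of the 10 members, and Ces1d, Ces1f and Ces3a had no entry. Over the 250 bases upstream of the annotated start, Ces1b and Ces1c aligned over 144 bases with 138 identical (95.8%), and the longest identical run was 58 bases. Both are shown because the neighbours are the pair whose levels kept the most constant ratio across livers of those compared below. Most other pairs of members were not compared. Ces1b and Ces1c also share 190 windows of 50 bases, so their counts may not be independent. The sequences give the 200 bases before the start, at chr8:93080018-93080217 for Ces1b and chr8:93131284-93131483 for Ces1c, both on the minus strand. Capitals mark runs of at least 12 bases found in the 250 bases upstream of the other gene.
Ces1b: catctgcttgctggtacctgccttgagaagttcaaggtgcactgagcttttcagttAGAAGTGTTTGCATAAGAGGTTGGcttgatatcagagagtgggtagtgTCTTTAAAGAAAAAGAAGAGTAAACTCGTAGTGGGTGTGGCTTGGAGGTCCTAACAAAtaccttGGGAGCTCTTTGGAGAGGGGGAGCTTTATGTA
Ces1c: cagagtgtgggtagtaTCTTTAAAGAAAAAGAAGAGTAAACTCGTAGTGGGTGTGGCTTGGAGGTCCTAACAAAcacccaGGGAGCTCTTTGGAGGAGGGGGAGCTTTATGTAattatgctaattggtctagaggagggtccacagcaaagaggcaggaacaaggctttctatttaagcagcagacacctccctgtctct
The 58-base run lies at -96 to -39 in Ces1b and at -184 to -127 in Ces1c, so the annotated starts of the pair sit at different distances from it. The run of 24 bases at -144 to -121 in Ces1b lies in Ces1c outside the stretch printed.

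The Ces2 genes were more diverged. Ces2a and Ces2e aligned over 188 bases at 73.9% identity, Ces2a and Ces2c over 220 bases at 72.3%, and Ces2c and Ces2e over 181 bases at 73.5%. They are shown because Ces2c was lowest, and Ces2a and Ces2e highest, in Brap F/F livers 2 and 3. The other livers did not show that opposition throughout. The 120 bases before the start are at chr8:104733883-104734002 for Ces2a, chr8:104846948-104847067 for Ces2c and chr8:104926140-104926259 for Ces2e, on the plus strand. Capitals mark runs of at least 8 bases shared with at least 1 of the other 2.
Ces2a: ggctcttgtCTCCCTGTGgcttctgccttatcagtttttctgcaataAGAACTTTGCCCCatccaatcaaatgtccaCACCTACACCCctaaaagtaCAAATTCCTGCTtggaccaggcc
Ces2c: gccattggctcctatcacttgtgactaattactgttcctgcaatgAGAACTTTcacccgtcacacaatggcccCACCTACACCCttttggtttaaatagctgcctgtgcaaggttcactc
Ces2e: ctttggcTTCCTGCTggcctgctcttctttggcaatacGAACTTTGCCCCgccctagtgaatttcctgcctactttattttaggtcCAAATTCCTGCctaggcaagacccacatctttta
The run of 13 bases at -73 to -61 in Ces2a shares its last 12 bases with the run at -82 to -71 in Ces2e, and its first 8 bases with the run at -75 to -68 in Ces2c.

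Short motifs were searched on both strands of the 250 upstream bases of the 7 members, after the sequences had been read. CAAAGT, a core of HNF4 sites, was in Ces2a and Ces2e, and in 12.6% of all 32851 promoters. The C/EBP letters TTGCNNAA were in Ces1b, Ces1c, Ces2a and Ces2e, against 9.56% of all promoters. TGTTTAC or TGTTTGC, the letters of FOXA sites, were in Ces1b and Ces1c, against 7.29%. The nuclear receptor half-site AGGTCA was in Ces2a (14.0% of all promoters). GTTAAT of HNF1 sites (6.43%) and GGAATG of TEAD sites (12.6%) had no match in these 7 windows. Motifs were not merged where they overlap, and a match describes letters only. In Ces1b the FOXA and C/EBP letters overlap, within the run of 24 bases shared with Ces1c. The FOXA and C/EBP matches of this pair are therefore not independent.

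Ces1c and Ces3a dominated the family once counts were divided by exon length. Ces1c, which in mice is largely secreted into plasma, reached a mean of 20905 normalized counts per kb over the 8 livers, and Ces3a, a lipid hydrolase of the endoplasmic reticulum, 17400. Ces1c was above Ces3a in 7 of 8 livers. Ces1d followed with 8489 per kb and was below Ces3a and above Ces1f in 8 of 8 livers. The next levels per kb were 3962 for Ces1f, 3179 for Ces1g, 3007 for Ces2a, 2625 for Ces1e and 2203 for Ces2e. Within this middle group neighbours in the order changed places between livers, with Ces1g above Ces2a in 6, Ces2a above Ces1e in 6 and Ces1e above Ces2e in 6 of 8. Ces1b at 989 and Ces2c at 631 per kb came last, and Ces2c was below Ces1b in 8 of 8 livers on this scale. Exon length counts all annotated exon bases of a gene. For Ces2c it is 2298, against 1970 for its transcript with the longest coding sequence, and for Ces1b both are 1964. In normalized counts Ces2c was above Ces1b in Brap LKO livers 2 (1839 against 1805) and 4 (1726 against 1560). Close places in the order thus depend on the length used, and an order by transcript length was not computed. Ranked on the same scale among the 15352 genes tested, the members ran from percentile 89.4 for Ces2c to 99.6 for Ces1c. The 10 members took 0.512% ± 0.0380 of the reads on genes in Brap LKO and 0.541% ± 0.0460 in Brap F/F (SD, n = 4 each).

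**Figure D2:**
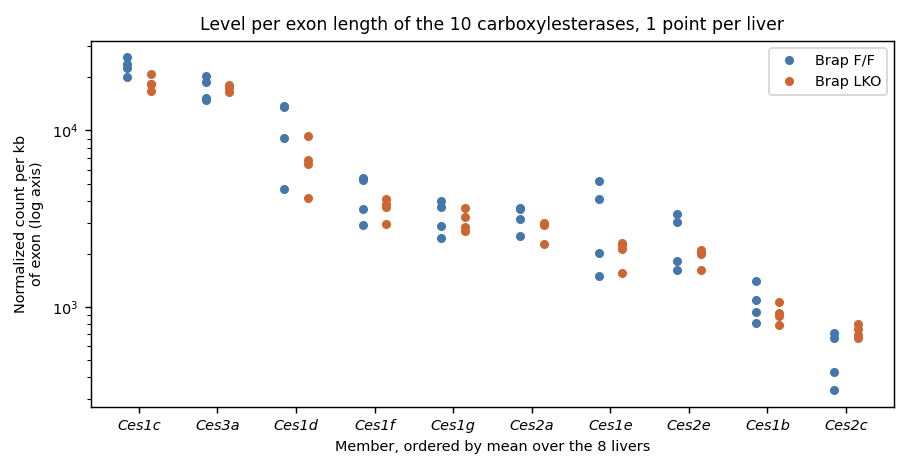
Normalized count per kb of exon (log axis) of the 10 members, ordered by their mean over the 8 livers, with 1 point per liver and the groups in different colours. Ces1c and Ces3a lie highest, Ces2c lowest, and the Brap F/F points of Ces1d, Ces1e, Ces2e and Ces2c are spread the widest.

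The groups were then compared gene by gene, with limma on log2(normalized count + 1) over the 15352 genes with a mean of at least 5 normalized counts. Adjusted p-values are Benjamini-Hochberg values over those genes, and a gene was called at an adjusted p under 0.05. Over all genes 0.769% were called in either direction, 0.664% as higher and 0.104% as lower in Brap LKO. All 10 members passed the filter, and 0 of 10 were called by limma, by edgeR or by DESeq2. Over all genes edgeR called 108 as higher and 14 as lower, and DESeq2 448 and 159. At an unadjusted p under 0.05 limma had 2 members (Ces1c and Ces2c), edgeR 1 and DESeq2 2, against 15.8% of all genes with limma. That share was not computed for edgeR and DESeq2. The groups of 0 of the 10 members were apart, that is with no overlap of the values, against 9.87% of all genes (4.39% with Brap LKO lower). RNA was taken from whole liver tissue. For any difference, a change in hepatocyte number and one in RNA per hepatocyte cannot be told apart.

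**Figure D3:**
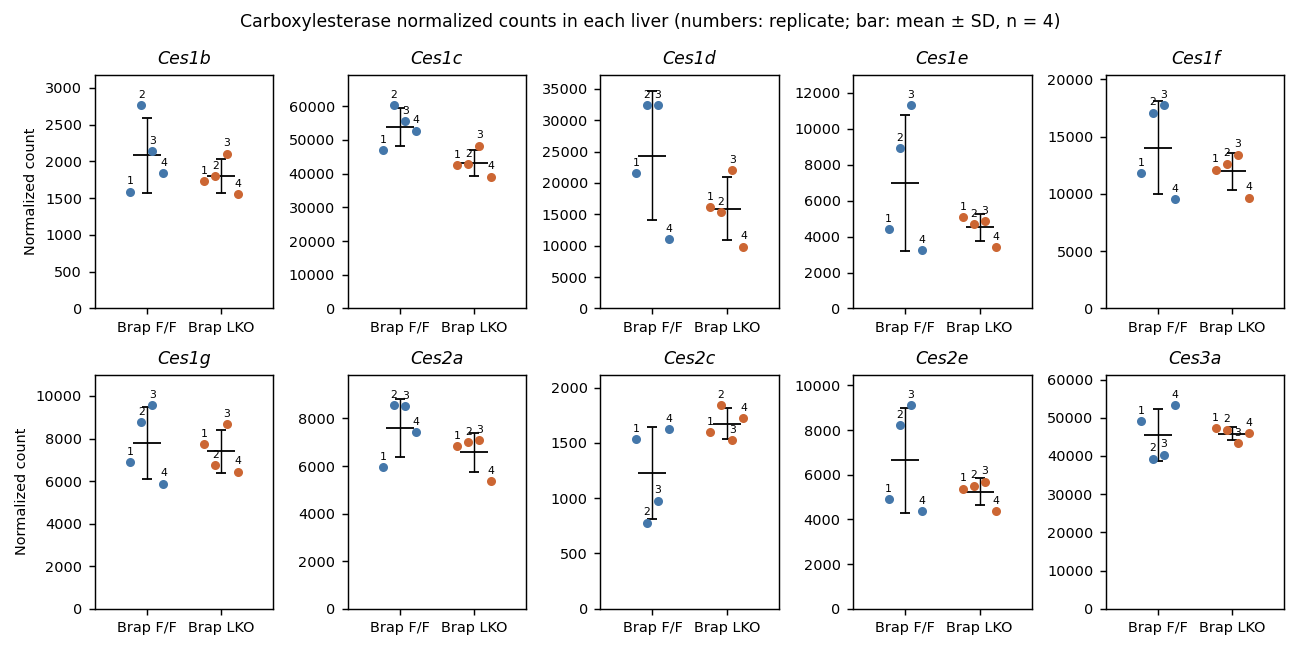
Normalized count of each member in each liver, with the replicate number beside each point and the mean ± SD (n = 4) as bars, on axes that start at 0. The Brap F/F points 2 and 3 lie above points 1 and 4 in 8 panels and below them in those of Ces2c and Ces3a.

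Ces1c had the smallest p of the members. Livers 1 to 4 of Brap LKO had 42628, 42881, 48311 and 39077 normalized counts, and livers 1 to 4 of Brap F/F had 46872, 60335, 55626 and 52771. The 3 Brap LKO livers other than liver 3 were below every Brap F/F liver, and liver 3 was above Brap F/F liver 1 alone. The log2 fold change was -0.32 ± 0.120 (SE), with a 95% interval of -0.59 to -0.05 and a limma adjusted p of 0.253. The exact permutation test of this gene gave p = 0.0571, where the smallest p for 4 against 4 is 0.0286. The adjusted p was 0.240 with edgeR and 0.0689 with DESeq2, and the latter was the lowest of any member under any alternative.

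Ces1d is the microsomal enzyme that mobilizes triglyceride for VLDL. It stood at 16166, 15398, 22078 and 9846 normalized counts in livers 1 to 4 of Brap LKO and at 21600, 32352, 32413 and 11028 in those of Brap F/F. The 4 Brap LKO livers were all below the Brap F/F median of 26976, yet Brap F/F liver 4 was lower than 3 of them. This gave a log2 fold change of -0.55 ± 0.356 (SE), with an interval of -1.35 to 0.25 (limma adjusted p = 0.476). Without Brap F/F liver 4 it was -0.89 and without Brap LKO liver 4 it was -0.34, and Ces1d was called in neither.

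Ces1e, or egasyn, holds the lysosomal enzyme beta-glucuronidase in the endoplasmic reticulum. Its values were 5068, 4678, 4882 and 3411 in Brap LKO and 4406, 8936, 11322 and 3257 in Brap F/F. Brap F/F liver 1 was below 3 of the Brap LKO livers, liver 4 was below all 4 of them, and livers 2 and 3 were above all 4. The log2 fold change of -0.47 ± 0.357 (SE; interval -1.27 to 0.33; limma adjusted p = 0.543) moved to -0.18 without Brap F/F liver 3 and to -0.78 without Brap F/F liver 4. Gusb, which encodes beta-glucuronidase and was chosen here for that partnership, differed by a log2 fold change of -0.04 ± 0.114 (limma adjusted p = 0.891). Kdelr1 and Kdelr2, receptors that return proteins to the endoplasmic reticulum, had log2 fold changes of -0.13 and -0.26, and 0 of the 4 genes of that list were called.

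The remaining Ces1 members differed less. Ces1f, a second triglyceride hydrolase of the endoplasmic reticulum, ranged from 9680 to 13432 in Brap LKO and from 9528 to 17766 in Brap F/F, a log2 fold change of -0.19 ± 0.201 (SE; limma adjusted p = 0.660). Ces1b ranged from 1560 to 2107 and from 1589 to 2767, with a log2 fold change of -0.19 ± 0.162 (limma adjusted p = 0.597). Ces1g, also called esterase-x and active on lipids in liver and intestine, ranged from 6445 to 8683 and from 5881 to 9560. Its log2 fold change of -0.05 ± 0.160 (limma adjusted p = 0.891) has an interval of -0.41 to 0.31, and its sign changed under 5 of the 22 alternatives, scaling to the same total and quantile normalization among them. Without Brap F/F liver 2 the log2 fold change of Ces1b was -0.04, and without Brap F/F liver 3 that of Ces1f was -0.07. Summed over the 6 Ces1 members, the normalized counts were 84788 ± 12045 in Brap LKO and 109140 ± 23843 in Brap F/F (SD, n = 4 each), a ratio of 0.777 given without a test.

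**Figure D4:**
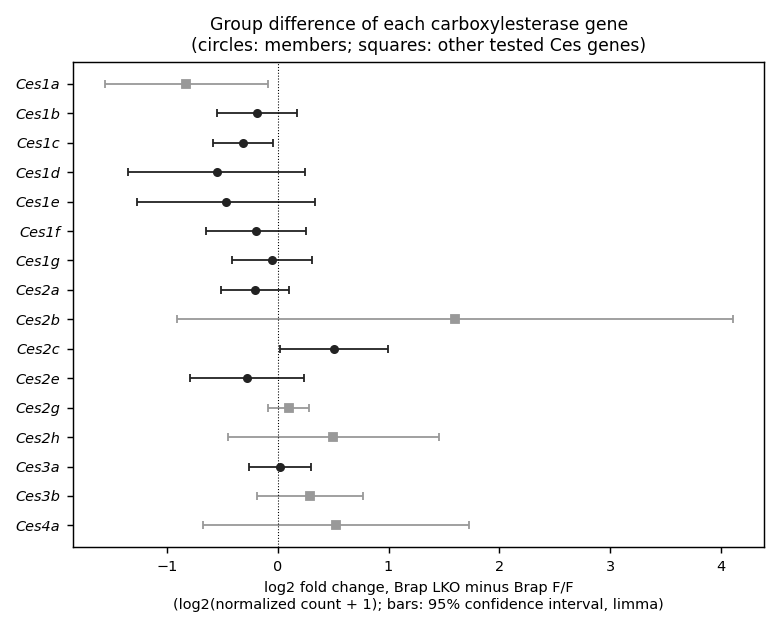
The log2 fold change of Brap LKO over Brap F/F with its 95% limma interval for the members (circles) and the other tested Ces genes (squares). Intervals of 8 of the 10 members include 0, and those of Ces1c (-0.59 to -0.05) and Ces2c (0.02 to 0.99) do not, before adjustment over all genes.

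The Ces2 members did not share a sign. Ces2c stood at 1595, 1839, 1524 and 1726 normalized counts in Brap LKO livers and at 1534, 778, 979 and 1625 in Brap F/F livers. Livers 1 and 4 of Brap F/F were within the Brap LKO range, and livers 2 and 3 were below every other liver. The log2 fold change was 0.51 ± 0.217 (SE), with an interval of 0.02 to 0.99 and a limma adjusted p of 0.301 (exact permutation p = 0.143). Without Brap F/F liver 2 it was 0.31. Since 42.2% of the Ces2c windows recur in other genes, the counts of Ces2d-ps were looked at, and they were 0 to 2 reads in each liver. Of the Ces2d-ps windows 76.9% recur as well, and how such reads were counted is not known. The low count therefore does not settle how certain that of Ces2c is.

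Ces2e, an enzyme of the same family in liver and intestine, was highest in the Brap F/F livers in which Ces2c was lowest. Its normalized counts were 5385, 5512, 5698 and 4379 in Brap LKO and 4898, 8216, 9109 and 4376 in Brap F/F. Brap F/F livers 2 and 3 were above all other livers, and livers 1 and 4 were within or at the edge of the Brap LKO values. Between groups the log2 fold change was -0.28 ± 0.228 (SE; interval -0.79 to 0.23; limma adjusted p = 0.575). Ces2a, a hydrolase of diglyceride and triglyceride, ranged from 5368 to 7097 in Brap LKO and from 5946 to 8551 in Brap F/F, with a log2 fold change of -0.20 ± 0.136 (limma adjusted p = 0.489). Without Brap F/F liver 3 the value of Ces2e was -0.10, and without Brap LKO liver 4 that of Ces2a was -0.11. The ratio of Ces2c to Ces2e within a liver was 0.0947 and 0.107 in Brap F/F livers 2 and 3 and between 0.267 and 0.394 in the other 6 livers. That ratio varied 4.16-fold, whereas the ratio of Ces1c to Ces1b varied 1.35-fold, from 21.8 to 29.5.

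Ces3a was the steadiest member in Brap LKO. It stood at 47374, 46881, 43378 and 45928 normalized counts in those livers and at 49189, 39323, 40345 and 53262 in Brap F/F. The Brap LKO values lay inside the Brap F/F range, with Brap F/F livers 2 and 3 below them and 1 and 4 above. The log2 fold change was 0.02 ± 0.125 (SE; interval -0.26 to 0.30; limma adjusted p = 0.945) and turned negative under 3 of the 22 alternatives. The ratio of Ces3a to Ces1d ran from 1.22 in Brap F/F liver 2 to 4.83 in Brap F/F liver 4.

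Of the other carboxylesterase genes of the clusters, 6 were tested. Ces3b, the neighbour of Ces3a, had a mean of 3933 normalized counts per kb, between those of Ces1f and Ces1g. It stood at 11892, 11959, 9678 and 10116 in Brap LKO and 10047, 5725, 8463 and 12832 in Brap F/F (log2 fold change 0.29 ± 0.214 SE, limma adjusted p = 0.533). As for Ces3a, Brap F/F livers 2 and 3 were the lowest of their group, and without Brap F/F liver 2 the log2 fold change of Ces3b was 0.077. Ces2b ranged from 2.03 in Brap F/F liver 2 to 166 in Brap F/F liver 4, and Ces4a from 42.7 in Brap F/F liver 2 to 269 in Brap LKO liver 4, with limma adjusted p-values of 0.511 and 0.652. Ces2g, at 1536 to 1948 normalized counts, had a log2 fold change of 0.10 (limma adjusted p = 0.589), and Ces2h, at 7.12 to 32.6, one of 0.50 (limma adjusted p = 0.587). Ces1a was listed at 2.73 to 6.24 in Brap LKO and 6.84 to 11.2 in Brap F/F, from 3 to 11 reads per liver, so its groups were apart (log2 fold change -0.82 ± 0.329 SE, limma adjusted p = 0.277, exact permutation p = 0.0286, the smallest possible). Brap LKO liver 4 and Brap F/F liver 1 both had 6 reads of Ces1a, so the separation rests on the size factors. Over all genes 9.87% had groups apart. None of these 6 carboxylesterase genes was called. Leaving out Brap F/F liver 2 lowered the log2 fold change of Ces2h to 0.14, that of Ces4a from 0.53 to 0.11 and that of Ces2b from 1.60 to 0.77. Ces2h was at 0.83 without Brap F/F liver 3, Ces4a at 0.86 without Brap F/F liver 1 and Ces2b at 2.69 without Brap F/F liver 4. Ces2g lay between 0.045 without Brap F/F liver 1 and 0.16 without Brap F/F liver 4, and Ces3b was at 0.47 without Brap F/F liver 4. Ces1h and Ces2d-ps had at most 3 reads in any liver and were not tested. Ces2f and Ces5a had no values in the data used and so were not analysed.

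Within groups the members fell into 2 sets by the order of the livers. In Brap F/F, livers 2 and 3 were the 2 highest for Ces1b, Ces1c, Ces1d, Ces1e, Ces1f, Ces1g, Ces2a and Ces2e, that is 8 of 10 members against 28.0% of all genes tested. They were the 2 lowest for Ces2c and Ces3a, a position held by 27.6% of all genes. In Brap LKO, liver 4 was the lowest for the same 8 members (31.3% of all genes), and liver 3 the highest for 7 of them (24.1% of all genes). Genes of 1 liver share its RNA and library, so these counts describe livers and are not independent. The SD of the log2 values was larger in Brap F/F than in Brap LKO for 10 of 10 members, against 64.0% of all genes. The median SD of the members was 0.39 in Brap F/F, against 0.22 over all genes, and 0.19 in Brap LKO, against 0.17. Ces1e and Ces1d varied 3.48-fold and 2.94-fold among the Brap F/F livers, and their SDs were at percentiles 94.0 and 91.3 of all genes. Ces3a varied 1.09-fold among the Brap LKO livers, with an SD at percentile 8.14.

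**Figure D5:**
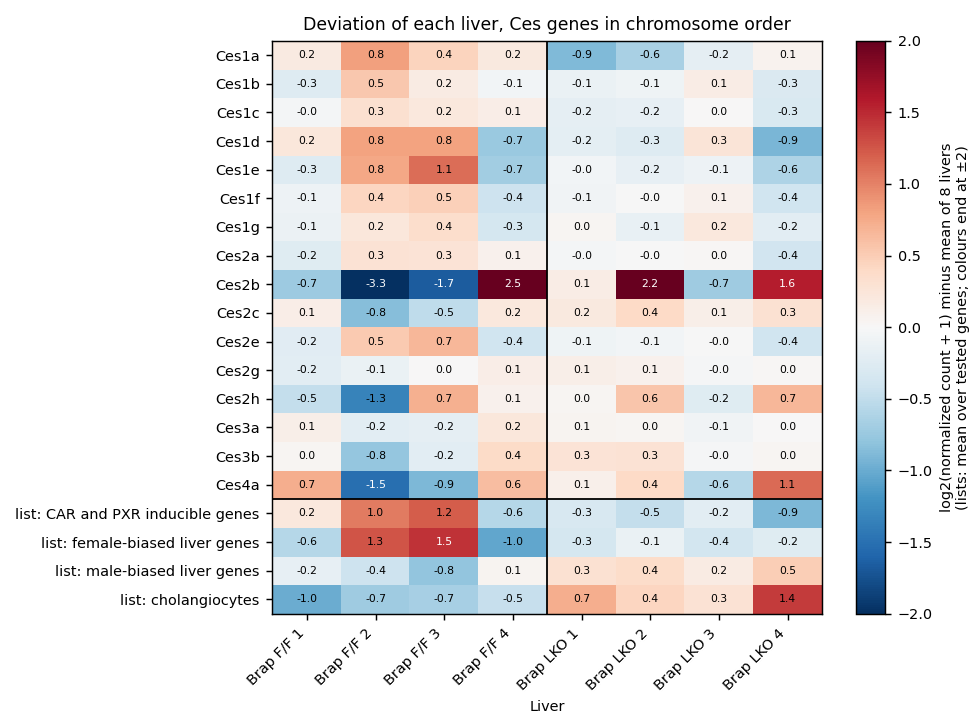
Deviation of each liver from the mean of the 8 livers on the log2(normalized count + 1) scale for the tested Ces genes in chromosome order, with the mean deviation of 4 gene lists below (colours end at ±2). Brap F/F livers 2 and 3 are above the mean for Ces1a to Ces2a and Ces2e, and below it for Ces2b, Ces2c, Ces3a, Ces3b and Ces4a.

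Other genes moved along the same axis of livers. A list score is the mean deviation of its genes from their mean over the 8 livers, in log2. Over all genes tested 52.0% were below 0 in the comparison, the share to set beside the list counts that follow. For 11 genes inducible through CAR and PXR the scores were 0.22, 1.04, 1.22 and -0.58 in Brap F/F livers 1 to 4, and -0.31, -0.47, -0.22 and -0.90 in the Brap LKO livers. Livers 2 and 3 of Brap F/F were thus highest, and liver 4 was within the Brap LKO range. All 11 were below 0 in the comparison, with a median log2 fold change of -0.68 against -0.01 for all genes, 5 had an unadjusted p under 0.05 and 1 was called. That gene, Cyp2c37, a cytochrome P450 that oxidizes arachidonic acid, fell from 5589 ± 797 to 3175 ± 526 normalized counts (SD, n = 4 each; log2 fold change -0.82 ± 0.142 SE, limma adjusted p = 0.0417). Cyp2b10, the classic target of CAR, picked here after its values were seen, stood at 72.0, 63.7, 165 and 32.2 in Brap LKO and 222, 1483, 657 and 108 in Brap F/F (limma adjusted p = 0.180).

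Female-biased liver genes followed the same livers. Over 7 tested genes the scores were 1.26 and 1.45 in Brap F/F livers 2 and 3, -0.57 and -1.03 in livers 1 and 4, and -0.37 to -0.14 in Brap LKO. Of these 7, 2 were above 0 and 5 below in the comparison, and 0 were called by limma, none of them at an unadjusted p under 0.05. Acot3, a peroxisomal thioesterase, and Cyp2b9 had the highest levels of that list, and Cyp2b9 is in the list of CAR and PXR inducible genes too. Of 9 male-biased genes, 8 were above 0 and 0 called by limma (4 at an unadjusted p under 0.05, median log2 fold change 0.56), with Cyp2d9 at 0.05 and Mup20 at 1.21. Their scores were -0.17, -0.41, -0.79 and 0.05 in Brap F/F livers 1 to 4 and 0.16 to 0.49 in Brap LKO, so Brap F/F livers 2 and 3 were lowest. The part of these lists in the members' result was not tested.

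The receptors themselves and other enzymes of lipid handling were read in the same way. Of 14 receptors and factors of hepatocyte transcription, 4 were above and 10 below 0 and 0 were called by limma (2 at an unadjusted p under 0.05), with Hnf4a at a log2 fold change of 0.05 and Rxra at -0.08. PXR (Nr1i2), at -0.39 ± 0.144 (limma adjusted p = 0.250), and CAR (Nr1i3), at -0.22 ± 0.133 (limma adjusted p = 0.454), are given as the receptors of the inducible genes above. Of 18 other ester and lipid hydrolases, 4 were above and 14 below 0 with 0 called (2 at an unadjusted p under 0.05), a median of -0.08. Among them Pon1, the paraoxonase of plasma lipoproteins, had a log2 fold change of -0.25 ± 0.130 (limma adjusted p = 0.391). Aadac, a microsomal esterase that also acts on triglyceride, had one of -0.19 ± 0.117 (limma adjusted p = 0.459). Of 12 genes for triglyceride storage and VLDL assembly, 11 were below 0 and 0 called (2 at an unadjusted p under 0.05), a median of -0.23. The exception was Apob, the structural protein of VLDL, at 0.19 ± 0.195 (limma adjusted p = 0.662), and P4hb, the partner subunit of the lipid transfer protein, was at -0.23 ± 0.115 (limma adjusted p = 0.367).

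Markers of other cells differed between the groups as well. The summed cholangiocyte markers were 1372 to 3076 normalized counts in Brap LKO and 726 to 1491 in Brap F/F, 7 of 8 had an unadjusted p under 0.05 and 2 were called, with Cldn4 at 4.25 to 21.8 against 0 to 1.05 and Cftr at 6.07 to 17.7 against 0 to 2.10. For stellate cells and fibroblasts the sums were 7529 to 11805 against 4978 to 8656, 8 of 9 were above 0, 5 had an unadjusted p under 0.05 and 1 was called (Pdgfrb, log2 fold change 0.91 ± 0.169, limma adjusted p = 0.0494). Macrophage markers were above 0 in 8 of 9 (sums 5948 to 10899 against 5967 to 8360), sinusoidal endothelium in 8 of 8 (6783 to 10055 against 6052 to 9077) and lymphocytes in 7 of 8 (150 to 225 against 111 to 173), with 0 called in these 3 lists by limma. In the same 3 lists 3, 0 and 1 genes had an unadjusted p under 0.05. No marker was at 0 in all livers. Of the 7 hepatocyte markers 6 were below 0 (median log2 fold change -0.19, close to that of the members, sums 2216735 to 2898408 against 2703429 to 3957204), and 0 were called (1 at an unadjusted p under 0.05), Alb being at -0.52 ± 0.496 (limma adjusted p = 0.634). The part of the other cell types in the members' differences was not tested.

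Position in the lobule was read from zonal genes. Of 8 pericentral genes 6 were above 0, 5 had an unadjusted p under 0.05 and 1 was called, the ammonium transporter Rhbg, which rose from 94.0 ± 18.2 to 179 ± 18.1 normalized counts (SD, n = 4 each; limma adjusted p = 0.0313). The summed pericentral genes, which weigh the most abundant ones, were 268896 to 381917 normalized counts in Brap LKO and 308960 to 483686 in Brap F/F. The sums thus did not rise with the number of genes above 0. Of 8 periportal genes 3 were above 0 and 5 below, 0 were called and 0 had an unadjusted p under 0.05 with limma. Pck1 was at a log2 fold change of -0.44 and Cyp2f2 at 0.27. The periportal sums were 245336 to 281013 in Brap LKO and 238594 to 384877 in Brap F/F. The part of the zonal genes in the members' differences was not tested either.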

How the data were processed

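The authors isolated total RNA with TRIzol and a column, prepared libraries with a NuGEN mRNA kit and sequenced single-end reads of 50 bases. According to the submitters' processing notes, FastQC, STAR 2.6.0c, mm10 and DESeq2 were used. The counting tool, annotation and use of strand are not given in the sources used here. The deposited signal is the read count of each gene divided by a DESeq2 size factor of the liver. In each liver 100% of values were whole multiples (within 0.01 reads) of the value of 1 read, so reads were recovered. The authors' own comparison (log2 fold changes and p-values) was not used.

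Groups came from the labels. The main test was limma 3.58.1 in R 4.3.3 (lmFit, eBayes with a trend) on log2(normalized count + 1), for genes with a mean of at least 5, without covariates. Fold changes on this scale understate low genes. On the recovered reads, DESeq2 1.42.0 and the quasi-likelihood test of edgeR 4.0.16 were alternatives. Single genes were also compared by two-sided exact permutation tests over 70 arrangements. Intervals (95%) rest on the spread between livers, and library molecules were not tagged. Exon lengths, positions, overlaps and shared windows came from GENCODE vM21 (mm10). The procedure was tested on simulated data. Replicate numbers did not mark shared animals.

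The members and gene lists were chosen with earlier results of these data known. Named are the members, the other Ces genes, genes inside the clusters and, of each list, up to 4 called genes or, where none was called, up to 2 with the highest mean. Gusb, Cyp2b10, Nr1i2 and Nr1i3 were named outside this rule. Python 3.11.15 with pandas 2.3.3, scipy 1.17.1 and matplotlib 3.10.9 was used.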

Additional observations from a re-analysis of the deposited data

Results flagged for a closer look

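Among the 16 tested carboxylesterase genes, the 4 livers of each group were examined for a single liver far from the others (Dixon's test at 95%), which gave 32 groups, and 2 were singled out. Ces2a in Brap LKO liver 4 was at 5368 normalized counts, while the nearest of the other 3 Brap LKO livers was at 6835. Ces2b was at 166 normalized counts in Brap F/F liver 4, while the nearest of the other 3 Brap F/F livers was at 17.1. Chance flags about 1 in 20 such groups, or 1.6 of 32.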

How the results depend on the processing

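The 10 members stayed without a call in each of 22 alternatives (220 values, lowest adjusted p 0.0689, DESeq2 for Ces1c) and at an adjusted p under 0.1 with limma. Their median log2 fold change stayed below 0, from -0.31 (without Brap F/F replicate 1) to -0.04 (same total per liver, where the median of all genes was 0.15 instead of -0.01). The direction held for 8 members in all 22. Ces1g turned to 0.054 with quantile normalization, 0.10 with the same total per liver, and ranged from -0.18 to 0.054 when 1 liver was left out (0.0094, 0.012 and 0.054 without Brap LKO replicate 4, Brap F/F replicate 2 or Brap F/F replicate 3). Ces3a turned to -0.018 with the animal series as a covariate, and to -0.044 and -0.032 without Brap F/F replicate 2 or 3. Its range over livers left out was -0.044 to 0.10. The labels name no series. A lower series (Brap LKO 1 to 3 and Brap F/F 1) and a higher one (the rest) were set here from the numbers in the labels. This split largely follows the groups, so the covariate cannot separate series from group well.

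The background moved more. Genes called higher in Brap LKO, 102, became 62 with quantile normalization, 459 with the same total, 185 with arrayWeights, 448 with DESeq2, 283 at an adjusted p under 0.1, and 11 (without Brap LKO replicate 1) to 178 (without Brap F/F replicate 4) when 1 liver was left out. Those called lower, 16, became 9 with a minimum mean of 20, 39 with arrayWeights, 159 with DESeq2, 64 at an adjusted p under 0.1, and 4 (without Brap F/F replicate 2) to 54 (without Brap F/F replicate 4). The cause was not tested.

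With the replicate number as a block, 80 genes were called higher and 15 lower and 0 members were called. Livers with the same number correlated at -0.13 to 0.29 after removal of group means, so the numbers were not taken as pairs, although 3 of 4 Brap LKO livers correlated best with their own number.

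With 4 livers per group the interval of a single member is wide, from -1.35 to 0.25 for Ces1d. The lowest read count of a member in a liver was 765 (Ces2c).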

Other observations

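Genes inside the clusters that are no carboxylesterases by name were also read. Gm45909, annotated within Ces1d on the same strand with 0 shared exon bases, stood at 178 ± 17.5 normalized counts in Brap LKO and 187 ± 48.5 in Brap F/F (SD, n = 4 each; limma adjusted p = 0.914). Gm8798, a transcribed pseudogene that holds 852 of the 1607 windows of 50 bases of Ces2d-ps, stood at 27.1 ± 4.07 and 17.3 ± 6.21 (log2 fold change 0.69 ± 0.290 SE, limma adjusted p = 0.297). The pseudogenes Gm45727 and Gm6831 were at 36.8 against 38.9 and at 6.89 against 5.65, and neither was called. Gm45910, Gm45725, Gm45724 and Matr3-ps2 had at most 3 reads in any liver.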
